A study of Mus musculus with 4 samples.

Results

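The 56 mitosis and spindle genes described here are a list of symbols: cyclins and kinases that drive a cell into mitosis, the motors and kinetochore proteins that move chromosomes, and the proteins that hold, compact and release them. They were matched by symbol to the gene tables of 4 lung libraries, and 56 of 56 were found among 23282 rows. Lung RNA came from male CDF1 mice in 4 groups that crossed treadmill exercise (E) with tumor (T), with 1 library for each group. E(-)T(-) is the normal control, E(+)T(-) the normal exercise group, E(-)T(+) the cancer control and E(+)T(+) the cancer exercise group. Exercise was high-intensity aerobic running on a treadmill every other day. Mice of both tumor groups had CT26 cells, a murine colorectal carcinoma line, injected into the tail vein, a route that carries cells to the lung. The labels give postnatal day 28 and 10 mice a group, and the methods give that age for the purchase of the mice. They were killed at the end of the experiment, after the injection, and so were older when sampled. For muscle, the study describes RNA of a representative mouse for each group and calls its lung analysis similar, but it does not state whether a lung library holds a single mouse or a pool, and no difference between groups below has a replicate check.

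Cells enter mitosis when CDK1, bound to cyclin B, is switched on by the CDC25 phosphatases. Polo-like and Aurora kinases then build the spindle, kinesins move chromosomes along it, and kinetochores, built on the centromere, attach them to microtubules. A checkpoint holds the anaphase-promoting complex until every chromosome is attached, after which securin and cyclin B are destroyed, cohesin is cut and the cell divides. Most cells of an adult lung do not divide, while carcinoma cells and the precursors of blood cells do. Transcripts of these genes build up late in the cell cycle, and their promoters are known for a CHR element and CCAAT boxes, through which the DREAM complex holds them off in resting cells and MYBL2 and FOXM1 turn them on.

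Values of the 4 libraries are given below in the order control, exercise, tumor, and tumor with exercise, that is E(-)T(-), E(+)T(-), E(-)T(+), E(+)T(+). Their totals were 13017450, 12780380, 9354542 and 13368004 reads. The smallest abundance that this depth can show, 3 reads, was 0.224 to 0.321 CPM, the read count scaled to a common library total. Levels are normalized read counts, taken from the deposited log2(normalized count + 1) values, and differences are on that log2 scale, which understates the change of low genes. The 95% intervals beside differences are exact intervals of the ratio of reads. They cover counting error only, not differences between mice or libraries. PCR copies are counted as reads, so the intervals can be too narrow even for counting error. The libraries also differed in make-up. Hemoglobin genes took 14.33%, 14.17%, 1.43% and 31.43% of the reads. Summed normalized counts of 14 alveolar epithelium markers were 254400, 301100, 37820 and 200300, with each of the 14 read in all 4 libraries, so lung markers were present throughout and lowest in E(-)T(+). Those of 8 endothelial markers were 27760, 29370, 3734 and 27040. Of 15 markers of colon or epithelial tumor, the sums were 10290, 10740, 14560 and 15780, with 5, 1, 1 and 1 of them at 0 reads. Krt7 made up 2989, 3640, 807.4 and 3765 of these sums, and Krt19 1470, 1285, 528.3 and 3000. Both were present in the tumor-free libraries, so these sums are not a measure of tumor cells alone. Members of that list went opposite ways: 6 were 2-fold higher and 5 lower in E(-)T(+) than in E(-)T(-), against 20.6% and 25.7% of all rows with a mean normalized count of at least 4, and 5 were higher and 5 lower in E(+)T(+) than in E(-)T(+), against 24.3% and 17.7%. Krt20 was 0, 42.2, 2954 and 556.6 and Hmga2 was 15.19, 108.4, 5292 and 362.5, highest in E(-)T(+), while Krt8 was 841.2, 975.9, 382.5 and 2229. Sums of 14 erythroid precursor markers were 5140, 5398, 1044 and 21290, with 3, 3, 4 and 0 of them at 0 reads. Alas2 made up 4022, 4201, 453.8 and 15820 of these sums, and 3 of the 14 were 2-fold higher and 7 lower in E(-)T(+) than in E(-)T(-), against the same 20.6% and 25.7%. Sums of 10 neutrophil precursor markers were 184.6, 361.7, 2035 and 5039, with 4, 4, 2 and 0 at 0 reads. Ltf made up 133.3, 112.9, 1709 and 647.5 of these sums, and Ngp 21.13, 160.7, 166.6 and 3048. Of the 9 past the filter, 7 were 2-fold higher and 1 lower in E(-)T(+) than in E(-)T(-), against 20.6% and 25.7%. In E(+)T(+) over E(-)T(+), 7 were higher and 1 lower, against 24.3% and 17.7%. T cell markers (10 genes) summed to 1409, 1138, 265.8 and 976.2, and B cell markers (8 genes) to 934.9, 893.4, 32.27 and 275.2. The part of these shifts in the values of the mitotic genes was not tested. In bulk RNA, more dividing cells and more of a transcript in each cell cannot be told apart.

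The mitotic genes were highest in E(-)T(+). Their share of the reads was 0.0369% for E(-)T(-) (95% Wilson interval 0.0359 to 0.038) and 0.0473% for E(+)T(-) (0.0461 to 0.0485). With tumor, it was 0.3836% (0.3796 to 0.3875) without exercise and 0.0797% (0.0782 to 0.0812) with it. With the hemoglobin reads left out, the shares were 0.0431%, 0.0551%, 0.3891% and 0.1162%. Their summed normalized count was 4077, 5546, 39300 and 12460, so that E(-)T(+) stood 9.64-fold over E(-)T(-), 7.09-fold over E(+)T(-) and 3.15-fold over E(+)T(+). The E(+)T(+) sum remained 3.06-fold over that of E(-)T(-). The median member had 34, 49.5, 401 and 117.5 reads.

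All 56 members had their highest value in E(-)T(+), which held for 35.5% of the 15164 rows with a mean normalized count of at least 4. All 56 passed that filter, and 52 of them would also have passed it on the E(-)T(-) and E(+)T(-) libraries alone. The order E(-)T(+), E(+)T(+), E(+)T(-), E(-)T(-) from high to low was seen in 38 members, against 10.4% of all rows. In 15 of those 38 the interval of the E(+)T(-) over E(-)T(-) ratio included no difference, so that the lower end of this order was within counting error for them. In 4 (Mad2l1, Aurkb, Espl1 and Kif18a) the same was true of E(+)T(+) over E(+)T(-).

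**Figure D1:**
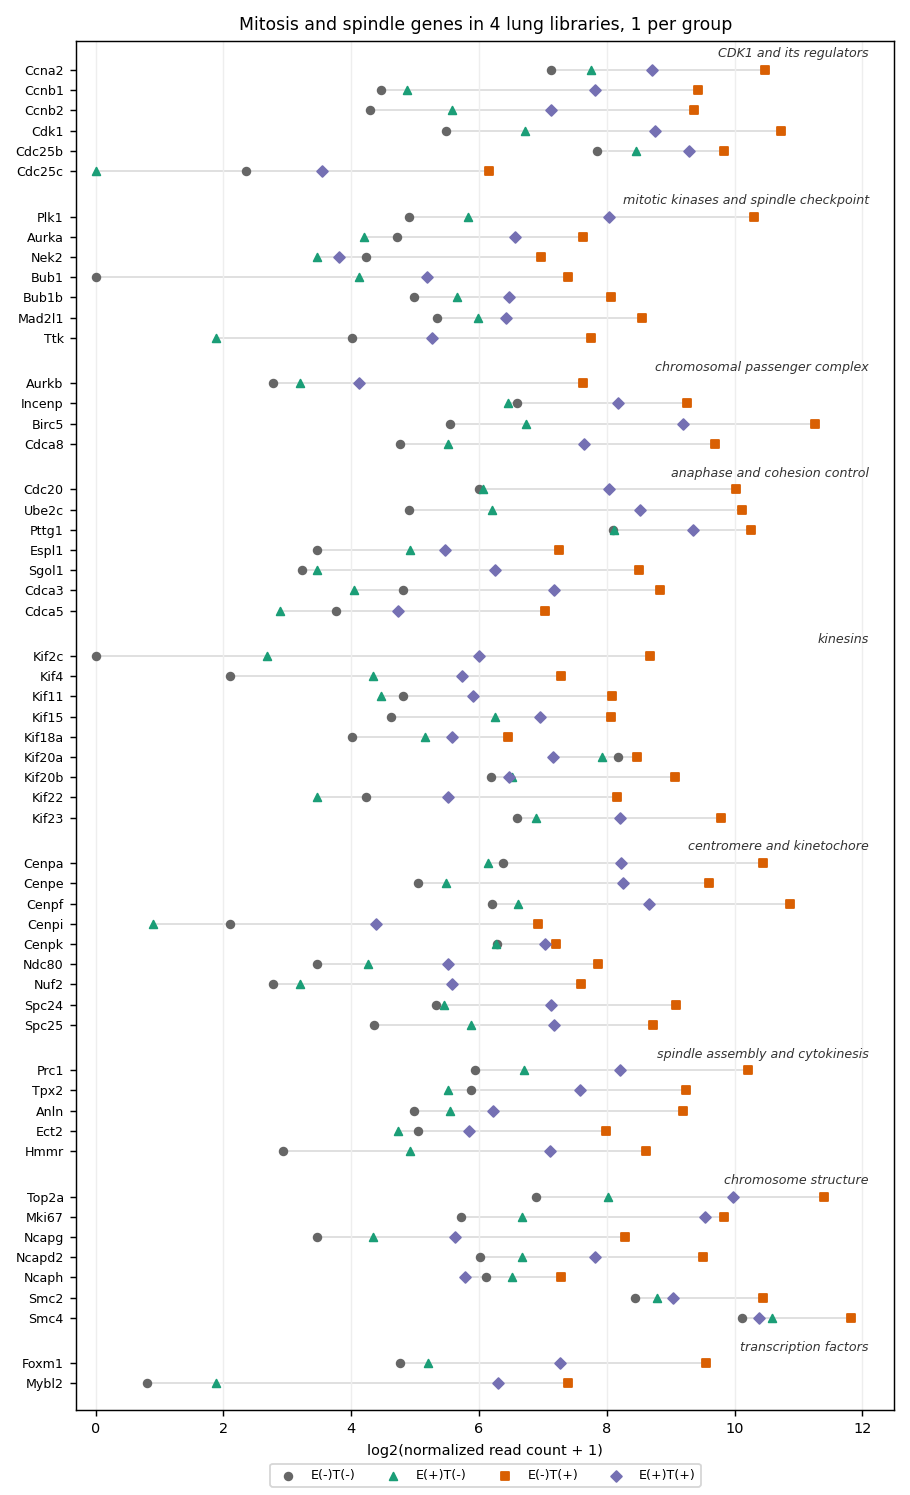
Deposited log2(normalized read count + 1) of each of the 56 members (rows, grouped by role) in the 4 lung libraries (marker shape and color), 1 library per group. The orange squares of E(-)T(+) lie farthest to the right in all 56 rows, and the purple diamonds of E(+)T(+) lie next in most.

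For the tumor effect without exercise (the ratio of E(-)T(+) to E(-)T(-)), 54 of 56 members were at least 2-fold higher and 0 were 2-fold lower. Of all rows past the filter, 20.6% were 2-fold higher in this comparison and 25.7% were 2-fold lower. The median difference of the members was 4.03, beside -0.03 for all rows, and the members ranged from 0.31 to 8.67. The interval lay above no difference in all 56, against 37.6% of all rows. For the exercise effect with tumor (the ratio of E(+)T(+) to E(-)T(+)), 51 members were at least 2-fold lower and 0 were 2-fold higher, against 17.7% of all rows 2-fold lower and 24.3% 2-fold higher. The interval lay below no difference in 55, against 36.6% of all rows. Here the median of the members was -1.97, beside 0.01 for all rows, with a range from -3.50 to -0.18. Both comparisons use the E(-)T(+) library, so the high values of that library enter each of them. A total of 50 members were 2-fold higher in the first and 2-fold lower in the second, against 11.2% of all rows.

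**Figure D2:**
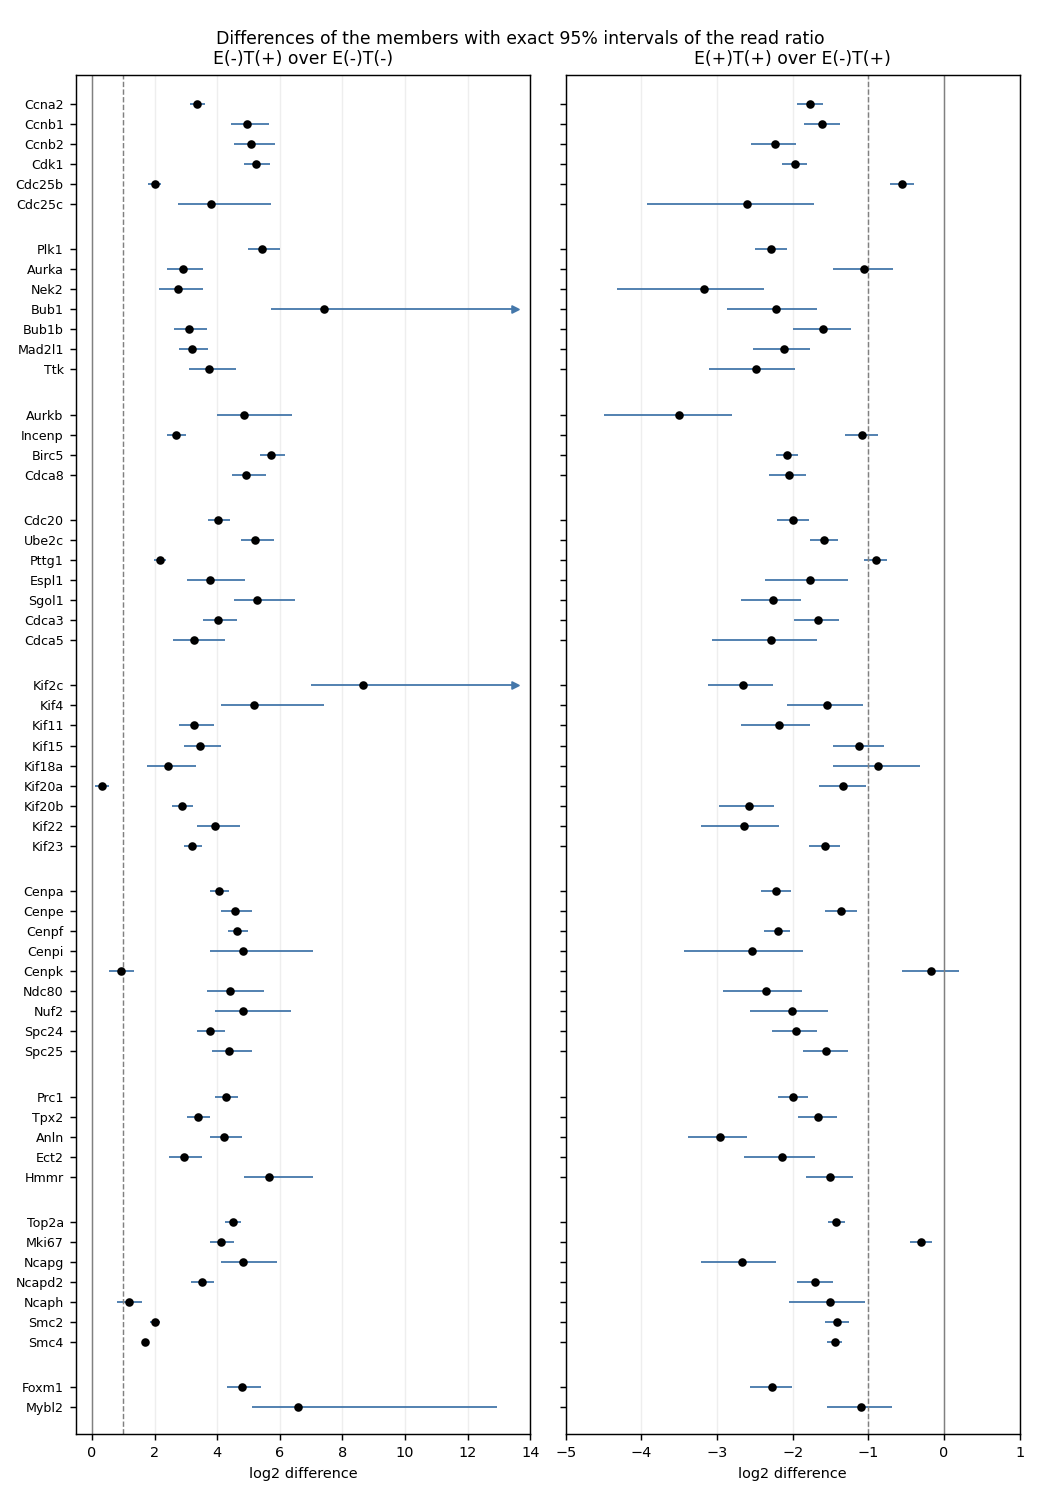
Log2 difference (black points) of each member in E(-)T(+) over E(-)T(-) (left) and E(+)T(+) over E(-)T(+) (right), with the exact 95% interval of the read ratio (blue lines; an arrow marks an interval with no upper end because E(-)T(-) had 0 reads). Dashed lines mark 2-fold; 54 points on the left and 51 on the right lie past it, and the interval of Cenpk on the right is the one that spans 0.

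Promoters of the members shared sequence elements that the list did not use. RefSeq promoters on GRCm38.p6, running from 250 bases before to 50 after the start of transcription, matched 47 of the 56 members. The other 9 were Aurkb, Ccna2, Cdc25c, Foxm1, Incenp, Kif20a, Smc4, Spc24 and Tpx2. The CHR, searched as TTTGAA or TTCGAA on both strands (TTCAAA is the reverse of the former), was present in 35 of 47 member promoters, or 74.5%, against 19.4% of 27025 promoters of all genes. A CCAAT box (CCAAT, reverse ATTGG) was present in 34, or 72.3%, against 37.9%, and 21 members held at least 2 of them, 44.7% against 12.2%. Both elements together were found in 29 members, 61.7% against 7.7%. An E2F motif (TTCCCGC or TTGGCGC, reverse GCGGGAA or GCGCCAA, the last of which can overlap a CCAAT box) was found in 10, 21.3% against 6.93%. The CHR lay close to the start: 44.7% of member promoters had it within the first 50 bases after the start, against 2.32% of all other promoters, and 23.4% had it in the 50 bases before, against 2.99%. The CCAAT box was most frequent just upstream, in 42.6% of members within 50 bases of the start and in 36.2% between 100 and 50 bases upstream, against 9.38% and 12.9% of other promoters. A match is a description of the letters and does not show that a factor binds there.

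**Figure D3:**
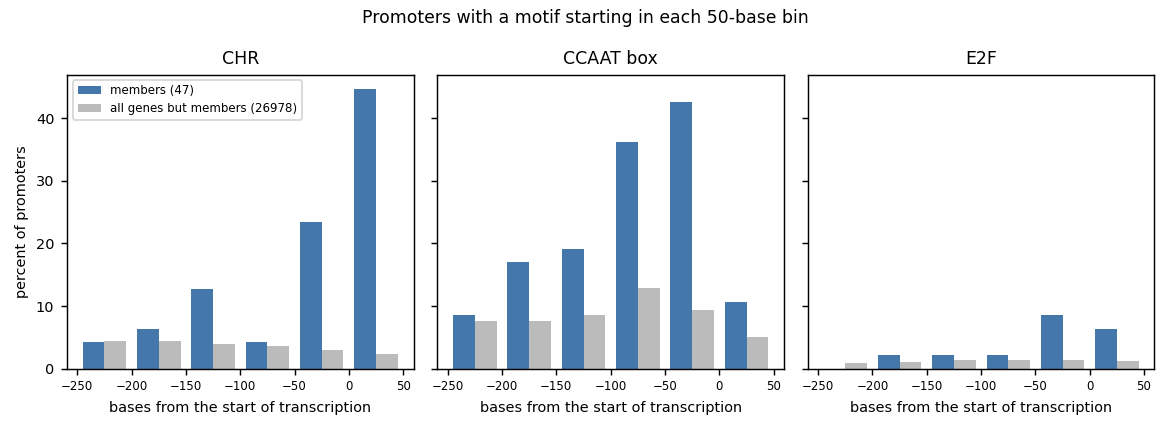
Percent of promoters in which a CHR, a CCAAT box or an E2F motif starts within each 50-base bin, by distance from the start of transcription, for 47 members (blue) and 26978 other genes (grey). The CHR of members peaks at 44.7% in the first 50 bases after the start, and the CCAAT box at 42.6% in the 50 bases before it.

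Promoters from 150 bases before to 50 after the start are shown for the entry kinase Cdk1, its cyclin Ccnb2, the kinase Plk1, the anaphase activator Cdc20 and the DNA topoisomerase Top2a, since they hold the shared elements in differing number and spacing. Birc5 and Mybl2, which were among the members with large tumor differences, and Cenpk, which was among those with small ones, are shown because this stretch holds none of the motifs as searched. Other forms of the E2F site were not searched, and the Mybl2 stretch holds TTGGCGG, which differs from the searched TTGGCGC in its last letter. Cenpk had a CCAAT box at -159, upstream of this stretch, and is counted among the 34 members with one. Capitals mark the CHR, CCAAT and E2F letters on either strand, and each sequence runs 5′ to 3′ on the strand of its gene.
Cdk1, chr10:69352863-69353062, minus strand: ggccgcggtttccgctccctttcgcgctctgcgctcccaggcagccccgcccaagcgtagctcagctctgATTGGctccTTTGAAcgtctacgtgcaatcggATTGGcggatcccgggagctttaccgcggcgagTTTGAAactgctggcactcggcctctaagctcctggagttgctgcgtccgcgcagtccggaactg
Ccnb2, chr9:70421505-70421704, minus strand: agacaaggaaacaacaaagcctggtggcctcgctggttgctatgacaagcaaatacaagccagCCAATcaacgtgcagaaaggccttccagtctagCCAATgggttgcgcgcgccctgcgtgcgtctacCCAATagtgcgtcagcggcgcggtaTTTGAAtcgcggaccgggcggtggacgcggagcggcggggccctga
Plk1, chr7:122159285-122159484, plus strand: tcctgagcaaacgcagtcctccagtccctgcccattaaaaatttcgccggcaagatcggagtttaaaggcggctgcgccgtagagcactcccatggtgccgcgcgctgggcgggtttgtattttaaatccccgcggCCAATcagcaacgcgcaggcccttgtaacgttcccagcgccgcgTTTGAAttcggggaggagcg
Cdc20, chr4:118437294-118437493, minus strand: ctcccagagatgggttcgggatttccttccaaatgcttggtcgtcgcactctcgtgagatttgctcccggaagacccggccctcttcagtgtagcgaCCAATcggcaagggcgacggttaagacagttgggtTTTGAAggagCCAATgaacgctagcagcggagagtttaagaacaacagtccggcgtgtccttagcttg
Top2a, chr11:99024140-99024339, minus strand: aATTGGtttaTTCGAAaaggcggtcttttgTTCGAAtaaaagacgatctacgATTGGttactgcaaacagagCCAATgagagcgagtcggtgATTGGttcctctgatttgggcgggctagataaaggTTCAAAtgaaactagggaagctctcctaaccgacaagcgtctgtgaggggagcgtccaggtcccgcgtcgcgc
Birc5, chr11:117849087-117849286, plus strand: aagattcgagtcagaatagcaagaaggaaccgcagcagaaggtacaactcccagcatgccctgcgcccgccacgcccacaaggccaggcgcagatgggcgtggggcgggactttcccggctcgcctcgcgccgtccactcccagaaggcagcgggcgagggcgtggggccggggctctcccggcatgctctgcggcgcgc
Mybl2, chr2:163054485-163054684, plus strand: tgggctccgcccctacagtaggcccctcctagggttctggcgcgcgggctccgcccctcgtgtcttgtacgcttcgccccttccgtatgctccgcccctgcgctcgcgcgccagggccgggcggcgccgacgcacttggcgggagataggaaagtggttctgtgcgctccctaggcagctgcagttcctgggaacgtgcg
Cenpk, chr13:104228461-104228660, plus strand: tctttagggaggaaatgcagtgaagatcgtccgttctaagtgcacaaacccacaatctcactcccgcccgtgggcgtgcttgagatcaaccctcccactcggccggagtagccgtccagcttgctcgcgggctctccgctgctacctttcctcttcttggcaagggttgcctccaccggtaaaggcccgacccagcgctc

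In Ccnb2, CCAAT boxes began at -87, -54 and -21 from the start, a spacing of 33 bases, with a CHR at position 5. Plk1 had its CHR at position 31 and a single CCAAT box at -14, and Cdc20 had a CHR at -18 between CCAAT boxes at -53 and -8. Top2a held 4 CHR matches and 6 CCAAT boxes in its whole window. The median tumor effect without exercise was 4.12 in the 35 members with a CHR and 3.88 in the 12 without, over ranges of 1.997 to 8.67 and 0.93 to 6.58. For the exercise effect with tumor, the medians were -1.99 and -1.56. Split by the CCAAT box, the medians with and without it were 4.19 and 3.45 for the tumor effect and -1.87 and -2.07 for the exercise effect. Split by the E2F motif, they were 3.47 and 4.27, and -1.66 and -2.01. The ranges overlapped in every split.

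CDK1 and its regulators make up the switch for entry into mitosis. All 6 were 2-fold higher in E(-)T(+) than in E(-)T(-), with a median of 4.37, and 5 were 2-fold lower in E(+)T(+) than in E(-)T(+), with a median of -1.87. Beside these counts and those of the groups below, 20.6% of all rows were 2-fold higher in the first comparison. In the second, 17.7% were 2-fold lower. Cdk1, the kinase itself, had normalized counts of 44.1, 105, 1692 and 431. Its 4 libraries were each apart beyond counting error, and the tumor effect without exercise was 5.23 (95% interval 4.86 to 5.69), followed by -1.97 (-2.14 to -1.81) with exercise. Ccnb1 and Ccnb2, the B cyclins that bind it, stood at 21.1, 28.4, 687 and 224 and at 18.6, 46.8, 662 and 139. Both were over 30-fold higher in E(-)T(+) than in E(-)T(-), 31.1-fold for Ccnb1 and 33.9-fold for Ccnb2. Ccna2, the cyclin of S phase and early mitosis, was 139, 215, 1422 and 417. Its reads are uncertain, because its last 1000 bases overlap Exosc9, which had 182, 254, 770 and 248 reads beside 164, 234, 1298 and 357 for Ccna2. Among the phosphatases that activate CDK1, Cdc25b had the smallest tumor effects and the smallest exercise effect with tumor of the group. Its normalized counts were 228, 349, 915 and 621, and its exercise effect with tumor of -0.56 (-0.72 to -0.40) did not reach 2-fold, which it did under library totals alone, at -1.17. Cdc25c was found in 5, 0, 64 and 9 reads, so only its E(-)T(+) level rests on more than a few reads.

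The kinases and checkpoint proteins of mitosis time its steps and watch over attachment, and 7 of 7 were past 2-fold in both comparisons, with medians of 3.202 and -2.22. Plk1, the polo-like kinase that acts from entry to cytokinesis, had 28.8, 55.96, 1272 and 261. Its tumor effect without exercise of 5.42 (4.969 to 5.998) was 42.8-fold. Aurka, the kinase of the spindle poles, had 25.4, 17.4, 196 and 93.5, and its exercise effect with tumor was among the smaller ones at -1.06 (-1.47 to -0.68). Nek2, a kinase that separates centrosomes, had 21, 11, 114 and 11 reads. Its exercise effect with tumor was -3.17 (-4.32 to -2.39), and its E(+)T(+) level was within counting error of E(+)T(-), at 0.34 (-0.999 to 1.70). The checkpoint genes Bub1b (30.5, 49.6, 267 and 87.7) and Mad2l1 (39.8, 62.4, 375 and 85.5) followed the order of the 4 libraries seen in most members, with E(+)T(+) over E(+)T(-) within counting error for Mad2l1, at 0.45 (-0.05 to 0.95). Ttk, the kinase that starts the checkpoint signal, had 18, 3, 196 and 32 reads and was lower in E(+)T(-) than in E(-)T(-), by -2.13 (-4.88 to -0.70). Bub1, a checkpoint kinase at the kinetochore, was not detected in E(-)T(-) and had 0, 18, 153 and 30 reads. Set against a floor of 3 reads in that library, it was at least 65.8-fold higher in E(-)T(+) and at least 6.49-fold higher in E(+)T(-).

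The chromosomal passenger complex corrects faulty attachments and later directs cytokinesis. Its 4 genes were past 2-fold in both comparisons, with medians of 4.89 and -2.06. Birc5, encoding survivin, had 45.8, 106, 2457 and 583, the largest tumor effect of the complex at 5.72 (5.35 to 6.16), and kept 22.3% of its rise in E(+)T(+), the rise being the normalized count of E(-)T(+) less that of E(-)T(-). Cdca8 (borealin) moved in the same way with 26.2, 45.0, 830 and 199. Aurkb, the kinase of the complex, showed the largest exercise effect with tumor of all 56 members. It was found in 7, 9, 180 and 14 reads, a difference of -3.50 (-4.49 to -2.81), and its E(+)T(+) level was within counting error of E(+)T(-) at 0.93 (-0.33 to 2.37). Incenp, the scaffold of the complex, differed less in both directions, with 95.1, 87.2, 613 and 288. The exercise effect with tumor was larger for Aurkb than for Incenp beyond counting error, since their intervals, -4.49 to -2.81 and -1.31 to -0.87, do not meet.

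Genes grouped under anaphase and cohesion control were past 2-fold in 7 of 7 and 6 of 7 cases, with medians of 4.03 and -1.78. The group also holds Cdca3, which is known for mitotic entry. Cdc20, which activates the anaphase-promoting complex, had 62.8, 66.1, 1041 and 261, and its tumor-free libraries did not differ beyond counting error, at 0.07 (-0.42 to 0.56). Ube2c, its ubiquitin-conjugating enzyme, had 28.8, 72.5, 1106 and 367. Unlike Cdc20 it was 2-fold higher in E(+)T(-) than in E(-)T(-), by 1.304 (0.73 to 1.95). Pttg1, the securin that the complex destroys, had 271, 274, 1216 and 650. Its exercise effect with tumor of -0.90 (-1.05 to -0.76) was the one in this group under 2-fold, and under library totals alone it was past it at -1.51. Espl1, encoding the separase that cuts cohesin, had 12, 32, 138 and 37 reads. Sgol1, which protects cohesin at centromeres, had 10, 11, 332 and 64 reads, a tumor effect of 5.28 (4.52 to 6.49). Cdca3 and Cdca5 (sororin, which stabilizes cohesin) had tumor effects of 4.03 and 3.27 and exercise effects with tumor of -1.67 and -2.29. Reads of Cdc20 and Ube2c share their last 1000 bases with Elovl1 and Tnnc2, whose reads had other patterns (2071, 1942, 1184 and 1497 for Elovl1, and 0, 2, 8 and 38 for Tnnc2).

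The kinesins are motors that move along microtubules. Of 9, 8 were 2-fold higher with tumor, with a median of 3.27, and 8 were 2-fold lower in E(+)T(+) than in E(-)T(+), with a median of -1.57. The 8 lower ones include Kif20a, at -1.33, whose reads cannot be assigned, as described below. Kif2c, which takes microtubules apart at the kinetochore, had 0, 6, 370 and 54 reads, at least 159-fold higher in E(-)T(+) than a floor of 3 reads in E(-)T(-). Kif11, the motor that pushes spindle poles apart, had 27.1, 21.1, 270 and 58.5, and Kif22, which pushes chromosome arms, had 17.7, 10.0, 285 and 44.5. In both, the tumor-free libraries did not differ beyond counting error. Kif23, which bundles microtubules between dividing cells, had 95.1, 118, 883 and 296. Kif15 and Kif18a kept a larger part of their rise in E(+)T(+), 40.5% and 44.3%. Kif18a, which limits the length of kinetochore microtubules, had 18, 38, 79 and 40 reads, and its E(+)T(+) level was within counting error of E(+)T(-), at 0.41 (-0.26 to 1.10). Kif20b kept 3.41% of its rise, with 72.1, 90.9, 531 and 87.8. Kif4, the chromosome-arm motor that works with condensin, had 4, 21, 142 and 45 reads.

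Kif20a stood apart from the other kinesins, with the smallest tumor effect of all 56 members at 0.31 (0.09 to 0.53). Its reads cannot be assigned. Of the 56 members, 7 overlapped a protein-coding gene within their last 1000 bases, where reads of this kit fall, and Kif20a was the one whose reads were nearly matched by those of the neighbors looked up. The gene overlaps Cdc23, a subunit of the anaphase-promoting complex on the opposite strand, and the use of strand in counting is not stated. Kif20a had 339, 262, 326 and 121 reads, and Cdc23 had 331, 266, 292 and 117. The nearly equal reads of both genes in all 4 libraries mean that the Kif20a value cannot be read as that of the kinesin.

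Of 9 centromere and kinetochore genes, 8 were 2-fold higher with tumor and 8 were 2-fold lower with tumor and exercise, with medians of 4.39 and -2.01. Cenpa, the histone H3 variant that marks the centromere, had 82.3, 69.8, 1390 and 298. Cenpe, a kinetochore motor, had 32.2, 44.0, 778 and 303, and Cenpf, a large kinetochore protein, had 73.0, 96.4, 1852 and 402. Cenpe kept 36.3% of its rise in E(+)T(+) and Cenpf 18.5%. The subunits of the NDC80 complex, which grips microtubules, are Ndc80, Nuf2, Spc24 and Spc25. Their tumor effects were close to each other at 4.39, 4.82, 3.76 and 4.37, and their exercise effects with tumor were -2.36, -2.01, -1.96 and -1.56. Ndc80 had 12, 20, 212 and 38 reads, and Spc25 had 23, 63, 385 and 122. Within this complex Spc25 was the one at least 2-fold higher in E(+)T(-) than in E(-)T(-), by 1.53 (0.86 to 2.32), beside 0.14 (-0.47 to 0.76) for Spc24. Cenpi, of the inner kinetochore, had 4, 1, 111 and 17 reads. Cenpk, another inner kinetochore subunit, had small differences, with 76.4, 76.2, 147 and 130. Its tumor effect of 0.93 (0.55 to 1.34) did not reach 2-fold, and its exercise effect with tumor of -0.18 (-0.55 to 0.20) was within counting error, which was true of no other member. Part of the Cenpk gene overlaps Ppwd1, which had 128, 150, 111 and 157 reads beside 90, 83, 134 and 111 for Cenpk.

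All 5 genes of spindle assembly and cytokinesis were past 2-fold in both comparisons, with medians of 4.21 and -1.99. Prc1, which bundles the central spindle, had 60.2, 104, 1181 and 296, and Tpx2, which activates Aurora A on the spindle, had 57.6, 44.9, 606 and 191. Anln, encoding anillin of the contractile ring, had 30.5, 45.9, 583 and 73.7. Its exercise effect with tumor of -2.96 (-3.38 to -2.61) was larger than that of Prc1, at -1.99 (-2.20 to -1.80), beyond counting error. Ect2, which activates RhoA at the division plane, had 38, 28, 230 and 48 reads. Hmmr, a spindle-associated protein and hyaluronan receptor, had 8, 32, 356 and 117 reads, the largest tumor effect of the group at 5.67 (4.85 to 7.07).

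Genes of chromosome structure untangle, coat and compact chromosomes. All 7 were 2-fold higher with tumor, with a median of 3.50, and 6 were 2-fold lower in E(+)T(+) than in E(-)T(+), with a median of -1.44. Top2a, the topoisomerase that untangles sister chromatids, had 119, 258, 2707 and 1007, and the 4 libraries differed beyond counting error in each comparison. Mki67, encoding the proliferation marker Ki-67 that coats mitotic chromosomes, had 51.7, 102, 914 and 740. It kept 79.8% of its rise in E(+)T(+), the largest part of all members, and its exercise effect with tumor was -0.30 (-0.46 to -0.15). Beside it, Top2a kept 34.3%, at -1.43 (-1.54 to -1.31). The core subunits of condensin, Smc2 and Smc4, had 346, 437, 1396 and 524 and 1115, 1540, 3625 and 1332. Their tumor effects, 2.01 (1.85 to 2.18) and 1.70 (1.61 to 1.79), were small among the members. The subunits of condensin I differed among themselves. Ncapg had 12, 21, 285 and 41 reads and a tumor effect of 4.82 (4.11 to 5.91), Ncapd2 had 75, 111, 666 and 191 reads and one of 3.50 (3.17 to 3.88), and Ncaph had 80, 98, 142 and 46 reads and one of 1.18 (0.79 to 1.61). Those 3 intervals do not meet. Ncapg shares its last 1000 bases with Lcorl, which had 336, 391, 1224 and 196 reads. Ncaph and Smc4 were lower in E(+)T(+) than in E(+)T(-), by -0.73 (-1.28 to -0.22) and -0.21 (-0.32 to -0.10).

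Foxm1 and Mybl2 encode transcription factors that drive late cell cycle genes. Foxm1 had 26.2, 35.8, 748 and 153, a tumor effect of 4.78 (4.31 to 5.40) and an exercise effect with tumor of -2.28 (-2.57 to -2.02). Its last 1000 bases overlap Tex52, which had 0, 0, 7 and 1 reads beside 31, 39, 683 and 131 for Foxm1, and Gm44596, whose reads were not analysed here. Mybl2 was nearly undetected in the tumor-free libraries, with 1, 3, 152 and 66 reads. Its tumor effect was 6.58, with a wide interval of 5.12 to 12.93, and it kept 46.2% of its rise in E(+)T(+) beside 17.6% for Foxm1. Their exercise effects with tumor differed beyond counting error, at -1.10 (-1.55 to -0.68) for Mybl2 and the value above for Foxm1.

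In E(+)T(+) most members stayed above E(-)T(-). The part of the rise that remained in E(+)T(+) had a median of 21.02% over the members. It was under 25% in 38 members and under 50% in 53, and the 3 above that were Mki67 (79.8%), Cenpk (75.9%) and Cdc25b (57.1%). In 47 members E(+)T(+) was at least 2-fold over E(-)T(-), against 14.8% of all rows, with a median difference of 1.92 beside -0.02 for all rows, and in 3 (Nek2, Kif20a and Ncaph) it lay under it. Of these, 1 (Kif20a, at -1.02) was 2-fold lower, against 14.4% of all rows. For the tumor effect with exercise (the ratio of E(+)T(+) to E(+)T(-)), 40 members were at least 2-fold higher and 0 were 2-fold lower, against 14.9% of all rows 2-fold higher and 13.0% 2-fold lower. The median was 1.604, beside -0.00 for all rows. The interval lay above no difference in 47 members, against 32.0% of all rows, spanned it in 6 and lay below it in 3 (Kif20a, Ncaph and Smc4), against 32.4%. Erythroid and neutrophil precursors are cell types that divide. The marker lists were not split by stage and do not tell dividing cells from later ones. All 14 erythroid markers and 8 of the 10 neutrophil markers were highest in E(+)T(+), the exceptions being Ltf, highest in E(-)T(+), and Cebpe, highest in E(+)T(-), and the part of such cells in the remaining level was not tested.

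**Figure D4:**
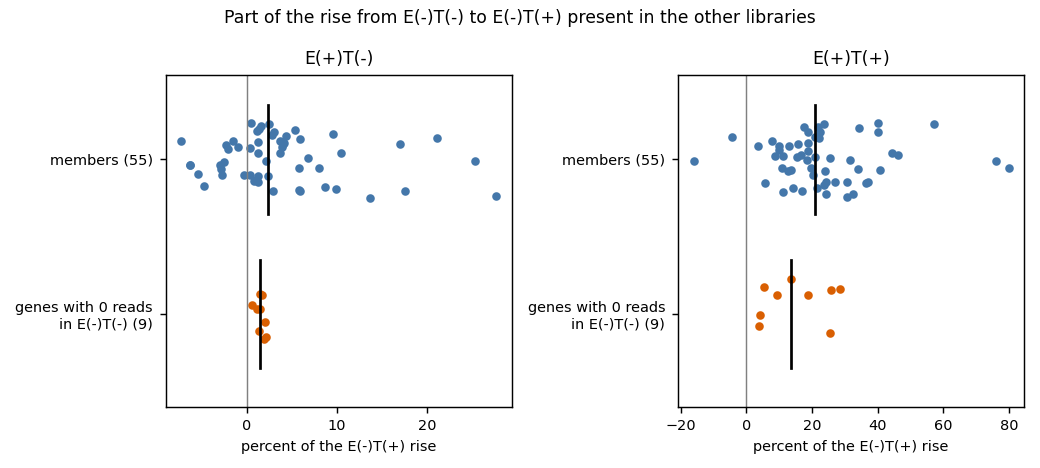
Part of the rise from E(-)T(-) to E(-)T(+) present in E(+)T(-) (left) and E(+)T(+) (right), in percent, for 55 members (blue, Kif20a left out because its rise is small) and for 9 other genes with 0 reads in E(-)T(-) and a normalized count of at least 500 in E(-)T(+) (orange). Black bars are medians. Most members lie near 0 on the left and under 50% on the right.

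The exercise effect without tumor (the ratio of E(+)T(-) to E(-)T(-)) was smaller. Of the 56 members, 14 were at least 2-fold higher, or 13 without Mybl2, against 5.28% of all rows, and 3 were 2-fold lower, against 4.7%. The median was 0.44, beside 0.00 for all rows, with a range of -2.36 to 4.13. The interval lay above no difference in 24 members, against 22.5% of all rows, below it in 2, against 21.3%, and spanned it in 30. For Mybl2 both libraries were at or under 3 reads, and no fold is given for it. The 3 lower ones were Ttk, Cenpi and Cdc25c. Cdc25c, with 5 and 0 reads, was at least 1.54-fold lower against the floor, and Cenpi, with 4 and 1, differed by -1.20 (-7.51 to 1.45), so that Ttk was the one whose interval lay below no difference. The largest differences rested on few reads: Bub1 with 0 and 18, Kif2c with 0 and 6, and Kif4 with 4 and 21. Among members with more reads, Top2a had 140 and 281, a difference of 1.11 (0.82 to 1.42), and Birc5 had 54 and 115, at 1.19 (0.72 to 1.70). Cdk1 had 52 and 114 reads, at 1.23 (0.76 to 1.75), and Kif15 had 28 and 82, at 1.63 (1.03 to 2.34). Others differed little: Pttg1 had 319 and 299 reads, at 0.02 (-0.21 to 0.25), and Cdc20 had 74 and 72.

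Some genes that set E(-)T(+) apart from E(-)T(-) also had reads in E(+)T(-), and where those reads come from was not tested. Genes with 0 reads in E(-)T(-) and at least 500 normalized counts in E(-)T(+) numbered 9 and were picked by these values. Krt20, Etv4 and Crabp1 were among them. In E(+)T(-) each had reads, at 0.642% to 2.18% of its E(-)T(+) level, with a median of 1.47%. Crabp1, for example, had 0, 141, 10478 and 382 reads. The part of the members' rise seen in E(+)T(-) had a median of 2.26%; it lay within the range of those 9 genes in 9 members, above it in 29 and below it in 18. With that median share of E(-)T(+) taken off E(+)T(-), an alternative chosen after the data were seen, the member counts were 7 higher and 7 lower, with 4.87% and 5.33% of all rows, and the median was 0.18. Top2a was then at 0.87, Birc5 at 0.59, Cdk1 at 0.84, Ccnb2 at 0.96 and Ube2c at 0.94, all under 2-fold. The 7 that stayed past it were Bub1, Kif4, Hmmr, Kif15, Kif18a, Spc25 and Espl1, the last at 1.34 and Hmmr at 1.68. The part of such reads in the members' values in E(+)T(-) was not tested further.

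Other genes of the cell cycle were read from lists chosen by function. Of 55 other mitotic and spindle genes, 46 were 2-fold higher and 1 lower in E(-)T(+) than in E(-)T(-) (median 3.75), against 20.6% and 25.7% of all rows, and 0 were higher and 46 lower in the exercise effect with tumor (median -1.75), against 24.3% and 17.7%. Aspm, a spindle-pole protein, had 15, 51, 376 and 65 reads, and Racgap1, of the central spindle, had 65, 67, 1230 and 175. Cenpo, an inner kinetochore subunit, went the other way with 191, 111, 62 and 60 reads. Lists of other parts of the same machines had medians nearer 0. Of 12 other condensin and cohesin subunits, 1 (Ncapg2) was 2-fold higher with tumor, against 20.6% of all rows, with a median of 0.27, and 3 were lower in the exercise effect with tumor, against 17.7%, with a median of -0.66. Rad21, the cohesin subunit that separase cuts, had 2177, 2112, 3178 and 1755 reads. Of 14 genes of the anaphase-promoting complex and its regulators, 3 were 2-fold higher with tumor, or 21.4% against 20.6% of all rows, with a median of 0.23, and 5 were lower with tumor and exercise, or 35.7% against 17.7%, with a median of -0.70. Cdc23, whose reads cannot be told from those of Kif20a, was among the 5. Fzr1, which activates the complex after mitosis, had a tumor effect of 0.81 beside 4.03 for Cdc20, which activates it in mitosis.

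Of 16 cyclins, kinases and E2F factors of G1 and S phase, 10 were 2-fold higher and 2 lower with tumor, against 20.6% and 25.7% of all rows, with a median of 1.32. With tumor and exercise, against tumor alone, 2 were higher and 10 lower, against 24.3% and 17.7%, at -1.24. Ccnd1, the G1 cyclin, had 4756, 6103, 15447 and 2767 reads. Against this direction, E2f2 had 371, 356, 93 and 1181 reads and was 3.75 higher in E(+)T(+) than in E(-)T(+). Of 7 CDK inhibitors, 3 were 2-fold higher and 2 lower with tumor, with a median of -0.01, against 20.6% and 25.7% of all rows. In the exercise effect with tumor, 4 were 2-fold higher and 0 lower, with a median of 1.22, against 24.3% and 17.7%. Cdkn1a, encoding p21, had 2129, 5462, 3422 and 16109 reads and was higher in E(+)T(-) than in E(-)T(-) by 1.47 as well. Cdkn1c, encoding p57, had 1351, 1043, 153 and 703 reads. Of 12 genes of the DREAM complex and the RB family, known to repress late cell cycle promoters, 4 were 2-fold higher with tumor and 4 lower with tumor and exercise, against 20.6% and 17.7% of all rows, with medians of 0.49 and -0.73. The CHR was found in 56.8% of 44 promoters of the other mitotic genes, in 15.4% of 13 of the anaphase-promoting complex and in 15.4% of 13 of the G1 and S phase list, beside 19.4% of all promoters. The E2F motif was found in 61.5% of the G1 and S phase list, beside 6.93%. Among 8 promoters of the other condensin and cohesin genes the CHR was in 3 and the E2F motif in 6, and among 8 of the DREAM list they were in 3 and 2.

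**Figure D5:**
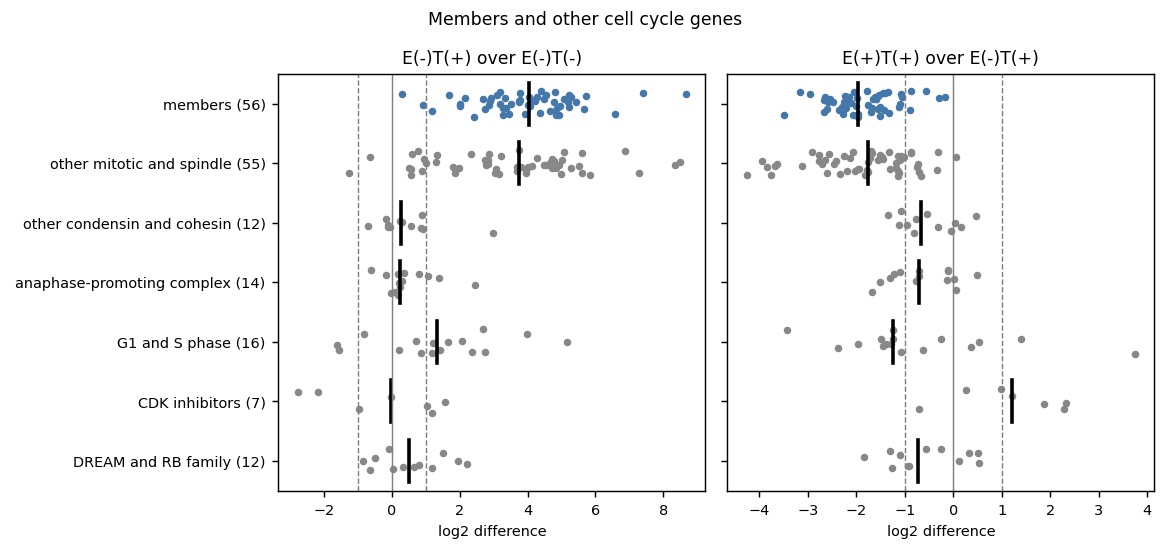
Log2 differences of the 56 members (blue) and of 6 other cell cycle lists (grey, number of genes in brackets) in E(-)T(+) over E(-)T(-) (left) and E(+)T(+) over E(-)T(+) (right). Black bars are medians and dashed lines mark 2-fold; the other mitotic genes overlap the members, with medians of 3.75 and -1.75 and ranges of -1.24 to 8.49 and -4.26 to 0.05, while the condensin, anaphase-promoting complex and DREAM lists center nearer 0, at 0.27, 0.23 and 0.49 on the left and -0.66, -0.70 and -0.73 on the right.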

How the data were processed

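Lung RNA was sequenced by the authors in 4 libraries, 1 per group, with the QuantSeq 3' kit, whose oligo-dT primer places reads at transcript ends. Per the labels and methods, the authors aligned reads to mm10 with Bowtie2, counted them with bedtools coverage and normalized them by the quantile method of edgeR. Versions, annotation and strand use are not given in the sources used here. The deposited log2 values are log2(normalized count + 1) at 3 decimals. Whole reads were recovered by inverting a negative binomial quantile adjustment (12 patterns, 1500 rows refitted, dispersion 0.372). It returned 99.78% of the values to all 3 decimals, with a largest error of 0.00051. Of the values, 94.6% were resolved to 1 read, and high read counts carry an uncertainty of 0.035%.

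Differences are those of deposited values. The limit was 2-fold and the filter a mean normalized count of 4, and read ratios carry exact (Clopper-Pearson) 95% intervals, shares Wilson intervals. With 1 library per group there is no test and no p-value. Alternatives were other scalings, a pseudocount of 4, other filters and the interval rule. Members, lists and alternatives were chosen with earlier results of these data known. Genes followed singly across the alternatives were those standing for each role and the 3 largest and 3 smallest differences in each comparison. Other members are described with their group. Promoters came from RefSeq (GRCm38.p6), 1 window per gene, and overlaps from GENCODE on GRCm38. Python 3.11.15, numpy 2.4.6, scipy 1.17.1, pandas 2.3.3 and matplotlib 3.10.9 were used.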

Additional observations from a re-analysis of the deposited data

Results flagged for a closer look

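The median exercise effect of the members lay in opposite directions without and with tumor. The median was 0.437 in E(+)T(-) over E(-)T(-) and -1.965 in E(+)T(+) over E(-)T(+). The difference between the 2 effects was not tested, since each group has 1 library. Higher in the first ratio and lower in the second were 41 members, against 24.9% of all rows, and the other 15 were lower in both, among them Ttk 2-fold lower in both. Cenpi and Cdc25c, with 4 and 1 and with 5 and 0 reads without tumor, had too few reads to be counted as such. Without tumor, the interval of 30 members spanned no difference. At least 2-fold in both, 13 members were higher in the first ratio and lower in the second, of which Mybl2, at or under 3 reads in both tumor-free libraries, is left out below. Their values without and with tumor were 1.287 and -2.241 for Ccnb2, 1.229 and -1.969 for Cdk1, and 4.127 and -2.219 for Bub1. They were 1.189 and -2.072 for Birc5, 1.304 and -1.589 for Ube2c, and 1.454 and -1.778 for Espl1. Those of the kinesins were 2.689 and -2.661 for Kif2c, 2.239 and -1.544 for Kif4, and 1.628 and -1.121 for Kif15. The rest were 1.526 and -1.556 for Spc25, 1.982 and -1.504 for Hmmr, and 1.112 and -1.426 for Top2a. Of all rows past the filter, 1.68% were 2-fold higher and then 2-fold lower in this way. Bub1 and Kif2c had 0 reads in E(-)T(-), so that their first values are not folds. With the median share of E(-)T(+) taken off E(+)T(-), an alternative chosen after the data were seen, 6 of the 12 were no longer 2-fold higher without tumor: Ccnb2 at 0.959, Cdk1 at 0.842, Birc5 at 0.593, Ube2c at 0.944, Top2a at 0.872 and Kif2c at 0.0.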

How the results depend on the processing

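Across scalings, pseudocount and filters, the median difference of the members kept its direction in all 4 comparisons. Library totals alone brought the median of all rows from 0.01 to -0.59 in the exercise effect with tumor, where the members' median became -2.571 with 54 lower, against 35.4% of all rows (Cdc25b at -1.166, Pttg1 at -1.511 and Kif18a at -1.471 came past 2-fold), and from -0.00 to -0.41 in the tumor effect with exercise, where 31 members were higher and 2 lower, against 9.5% and 24.2%. The cause was not tested beyond the hemoglobin reads: with those left out of the totals, 51 were lower, against 19.5% of all rows, and the median was -2.05. With a mean normalized count of at least 100, which leaves 37 members, 35 were 2-fold higher in the tumor effect without exercise (18.3% of all such rows), 33 lower in the exercise effect with tumor (14.3%), 9 higher and 0 lower in the exercise effect without tumor (1.68% and 0.447%) and 26 higher in the tumor effect with exercise (9.8%). That mean includes E(-)T(+), where all members are highest, and 20 members reach it on the other 3 libraries. Counted by intervals that exclude no difference, 24 members were higher and 2 lower in the exercise effect without tumor (26 in all), against 22.5% and 21.3% of all rows. Taking the median share of E(-)T(+) off E(+)T(-) left 7 higher and 7 lower there, against 4.87% and 5.33% of all rows, and 42 higher in the tumor effect with exercise, against 15.6%. Among 145 differences of the genes followed singly, which are part of those named above, 48 left their counting interval under library totals alone. With that share taken off, which changes only comparisons with E(+)T(-), 8 did. With a pseudocount of 4 it was 2, and without the hemoglobin genes 1. The other alternatives for counts and medians stayed within 1.5 times the count or within the counting interval. Members with 0 reads, set at their bound, left all 4 medians as given and took the members 2-fold lower in the exercise effect without tumor from 3 to 2. No paired analysis was possible because each group has 1 library.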
